A study of Homo sapiens with 14 samples.

Results

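The metallothionein genes were followed across 14 RNA libraries of MCF-10A, an immortalised and non-tumorigenic human mammary epithelial line. The set has 9 genes of the 27543 named loci in the table: the metallothioneins MT2A, MT1E, MT1X, MT1F, MT1G, MT1L, MT1M and MT1A, and the zinc exporter gene SLC30A1. It was chosen from measured values, because MT1E and MT2A are among the largest increases when MRTFB loses SRF binding, and the other 7 genes joined as relatives or as a zinc-responsive partner. Each gene was read at the locus of highest mean FPKM that carries its symbol, and each symbol had 1 locus. FPKM is the number of sequenced fragments scaled by transcript length and library size. Levels of different genes can thus be set side by side only as far as the transcript lengths used hold. Those lengths are not given in the sources used here.

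All cells were collected on day 2 after infection with a retrovirus, and the 7 groups hold 2 libraries each. The Hygro vector group received the empty pMSCV Hygro vector and the Puro vector group the empty pMSCV Puro vector. YAP 5SA is a hyperactive form of YAP, the coactivator of TEAD transcription factors. MRTFB is a coactivator of the transcription factor SRF that is held inactive by monomeric actin (G-actin), and the form called MRTFB dN is free of that hold because it does not bind G-actin. The other forms are built on it: MRTFB dN dPY is in addition unable to bind YAP, MRTFB dN Y305A is unable to bind SRF, and neither partner is bound by MRTFB dN Y305A/dPY. The study asks which genes respond to MRTFB and which of those responses need its binding to SRF or to YAP. The labels do not say which vector carried each construct or whether the 2 libraries of a group came from separate cultures, so p-values measure only the spread between these libraries.

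Metallothioneins are small cysteine-rich proteins that bind zinc, copper and cadmium and buffer these metals in the cell. Their genes lie side by side on chromosome 16 and are switched on by the zinc sensor MTF1, which binds short metal response elements in their promoters. Glucocorticoids and oxidative stress also raise metallothionein RNA in many cell types. SLC30A1 encodes ZnT1, which moves zinc out of the cell and is another textbook target of MTF1, on a different chromosome.

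The promoters are shown first because metal response elements are the feature that these genes are known to share. RefSeq sequences of 250 bases before to 50 bases after the gene start matched 3 of the 9 members in build GRCh38.p14, and no promoter is shown for MT1A, MT1E, MT1F, MT1G, MT1L and MT1M. They are MT2A at chr16:56608334-56608633 on the plus strand, MT1X at chr16:56682220-56682519 on the plus strand and SLC30A1 at chr1:211579112-211579411 on the minus strand. Each is written 5′ to 3′ on the strand of the gene, and capitals mark each match of the 7-base core of the metal response element, searched on both strands as TGCACNC and TGCGCNC:
MT2A: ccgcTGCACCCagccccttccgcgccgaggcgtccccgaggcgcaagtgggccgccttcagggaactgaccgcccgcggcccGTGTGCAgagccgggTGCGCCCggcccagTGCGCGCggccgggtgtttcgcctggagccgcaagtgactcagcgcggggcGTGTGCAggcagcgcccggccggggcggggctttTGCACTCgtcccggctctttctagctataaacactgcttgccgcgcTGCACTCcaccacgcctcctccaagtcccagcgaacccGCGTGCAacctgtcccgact
MT1X: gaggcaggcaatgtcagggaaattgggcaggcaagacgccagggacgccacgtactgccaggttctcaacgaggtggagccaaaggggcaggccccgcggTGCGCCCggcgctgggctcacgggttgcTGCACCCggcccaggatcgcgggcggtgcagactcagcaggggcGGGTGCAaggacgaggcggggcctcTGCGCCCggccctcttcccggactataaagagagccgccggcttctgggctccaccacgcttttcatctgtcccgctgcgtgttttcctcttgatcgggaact
SLC30A1: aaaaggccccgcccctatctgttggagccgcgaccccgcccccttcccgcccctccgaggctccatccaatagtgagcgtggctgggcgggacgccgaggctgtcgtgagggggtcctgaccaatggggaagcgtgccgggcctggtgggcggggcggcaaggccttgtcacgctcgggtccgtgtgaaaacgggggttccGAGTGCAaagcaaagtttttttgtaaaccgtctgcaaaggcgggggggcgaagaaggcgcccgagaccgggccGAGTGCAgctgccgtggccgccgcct

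The MT2A promoter held 8 core matches, 6 of the form TGCACNC and 2 of the form TGCGCNC. The MT1X promoter held 4, 2 of each form, and the SLC30A1 promoter held 2, both TGCACNC. Bases just after the start were found in a GENCODE v29 transcript of the gene for MT2A and MT1X. They were not found for SLC30A1, so its start and match positions are less certain. Among 35116 RefSeq promoters of the same length 29.6% held at least 1 core match of either form, 8.60% at least 2, 0.601% at least 4 and 0.0740% at least 6. MT2A also held 1 AP-1 motif (TGANTCA, in 7.71% of all promoters) from base -104 to -98, inside a match of the antioxidant response element (TGACNNNGC, in 13.3%) from -104 to -96. MT1X and SLC30A1 each held 1 antioxidant match and no AP-1 match. The TEAD motif GGAATG, present in 14.03% of all promoters, and the CArG box, the motif that SRF binds, present in 1.29%, had no match on either strand in these 3 windows. A match is a description of letters only, and so is the lack of one.

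**Figure D1:**
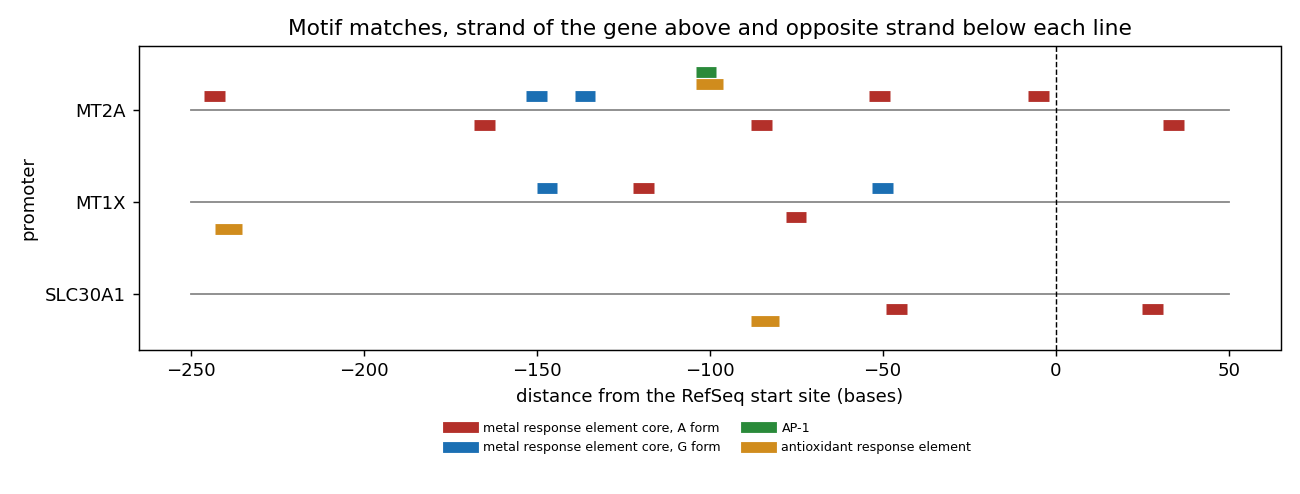
Motif matches in the RefSeq promoters of MT2A, MT1X and SLC30A1, plotted by distance from the gene start in bases, with matches on the strand of the gene above each line and those on the opposite strand below. Red and blue bars are the 2 forms of the metal response element core, and MT2A has 8 of them against 4 in MT1X and 2 in SLC30A1.

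The introduced genes were high in the libraries that the labels name. The FPKM of a whole gene cannot tell the 4 MRTFB forms apart, nor YAP 5SA from unaltered YAP, so those identities rest on the labels. MKL2, under which the table lists MRTFB, had 165 to 610 FPKM in the 8 MRTFB libraries and 3.06 to 6.599 elsewhere, and YAP1 had 529 and 625 FPKM in YAP 5SA and 18.3 to 50.9 elsewhere. All 10 mammary basal and epithelial markers reached 1 FPKM, with a summed level of 2436 to 63042 FPKM. KRT8 and KRT18, keratins of luminal cells, were listed at 0 in replicate 1 of both Y305A forms but at 9623 to 16608 FPKM in replicate 2, so a 0 there can be a failed estimate. Against the Puro vector 5 of these 10 rose and 1 fell in both SRF-binding forms of MRTFB, 3 rose and 1 fell in both Y305A forms, and 5 were lower and 1 higher in the Puro than in the Hygro vector. Of 8 fibroblast markers 3 reached 1 FPKM (summed 0.886 to 16.6), of 5 endothelial markers only CDH5 did (0.168 to 14.9), and of 7 leukocyte markers 3 did while 1 was at 0 throughout (297 to 807, from a multi-gene locus that contains CD68 and from CD14). CD14, a monocyte receptor, was called lower in both SRF-binding forms, with 27.9 and 139 FPKM in the Puro vector, 1.31 and 4.01 in MRTFB dN, while MRTFB dN Y305A had 30.6 and 149. DCN, a fibroblast proteoglycan, was called lower in all 4 forms. The locus COL3A1,MIR3606, which holds a fibroblast collagen gene, was called higher in MRTFB dN. That locus had 0 FPKM in both Puro vector libraries, and 1.13 and 3.76 in MRTFB dN. CDH5, an endothelial cadherin, was called higher in all forms but MRTFB dN dPY. The part of these markers in the results below was not tested. Puro vector replicate 1 stands apart, with 58.8% of its FPKM sum in unnamed loci against 9.99% to 38.6% in the other 13 libraries. Without counts in the table the depth is unknown in absolute terms. From the ratios of the lowest values, relative depth, set to 1 in Hygro vector replicate 1, ran from 0.314 in Puro vector replicate 1 to 1.39 in YAP 5SA replicate 1.

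Of the 9 members 5 passed the filter of at least 1 FPKM in at least 2 libraries (MT2A, MT1E, MT1X, MT1F and SLC30A1), and only these entered the tests. The other 4 were at or near 0. MT1A and MT1M were listed at 0 in all 14 libraries, and MT1L, a transcribed pseudogene, was above 0 in 1 library, at 0.187 FPKM in MRTFB dN Y305A/dPY replicate 2. MT1G was above 0 in 6 libraries and highest in Puro vector replicate 2, at 0.645 FPKM. Among the 7 other metallothionein-cluster symbols checked (MT1B, MT1H, MT1DP, MT1IP, MT1JP, MT3 and MT4) the highest value was 0.619 FPKM, at the pseudogene MT1DP. The metallothionein RNA of these cells was thus nearly all MT2A, MT1E and MT1X.

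Paralogs of this family can share reads. The longest GENCODE v29 transcript of each member was compared with the other members and with MT1B, MT1H, MT3 and MT4. MT2A, MT1X, MT1F, MT1A, MT1L and MT1M shared no exact 75-base word, the length of a read. MT1E shared 1.68% of its words and MT1G 5.23%. With 50-base words MT1G shared 14.2%, MT1E 6.32%, MT1A 4.90%, MT2A 2.46%, MT1M 1.92%, MT1X 1.01%, MT1F 0.066% and MT1L 0%. Other loci of the family, such as MT1DP, MT1IP and MT1JP, were not compared, and reads aligned with mismatches were not counted. The way the authors' tools assigned reads that match more than 1 gene is not given in the sources used here, so the split between MT1E and its near copies carries that uncertainty.

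MT2A, the isoform that usually dominates in human cells, was the leading member in every library. The Hygro vector libraries had 1285 and 1336 FPKM, the YAP 5SA libraries 2503 and 1972, and the Puro vector libraries 1457 and 10521. MRTFB dN had 47.5 and 138 FPKM and MRTFB dN dPY 46.2 and 196. MRTFB dN Y305A had 7622 and 16179 FPKM and MRTFB dN Y305A/dPY 6166 and 9718. All 4 libraries with an SRF-binding MRTFB lay below all 10 others. The 4 libraries of the Y305A forms lay above all others except Puro vector replicate 2, which fell among them.

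By rank the same gene was among the very highest loci in some libraries and much lower in the order in others. In the Y305A forms MT2A was between the third and the eighth highest of all named loci, at rank 5 and 3 in MRTFB dN Y305A and at rank 8 and 4 in MRTFB dN Y305A/dPY. The ranks in replicate 1 of both forms do not count KRT8 and KRT18, which are listed at 0 there and exceeded 7622 FPKM in replicate 2. It was at rank 30 and 5 in the Puro vector, 59 and 106 in the Hygro vector, and 16 and 27 in YAP 5SA. In MRTFB dN it was at rank 1814 and 589, and in MRTFB dN dPY at rank 1583 and 411. Ordered by group mean, MT2A was at 11900.5 ± 6050.1 FPKM (SD, n = 2) in MRTFB dN Y305A, 7942 ± 2512 in MRTFB dN Y305A/dPY, 5989 ± 6409 in the Puro vector, 2237 ± 375 in YAP 5SA, 1310.3 ± 36.0 in the Hygro vector, 121 ± 106 in MRTFB dN dPY and 92.8 ± 64.1 in MRTFB dN. In this order only YAP 5SA and the Hygro vector, and the Hygro vector and MRTFB dN dPY, are neighbours whose libraries did not overlap.

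MT1E, a metal-binding isoform of the MT1 branch of the family, followed the same order at a lower level. It had 158 and 182 FPKM in the Hygro vector, 401 and 434 in YAP 5SA, and 428 and 1288 in the Puro vector. In MRTFB dN it had 5.23 and 20.2 FPKM, and in MRTFB dN dPY 8.99 and 25.4. In MRTFB dN Y305A it had 1569 and 2099 FPKM, and in MRTFB dN Y305A/dPY 881 and 1494. Both MRTFB dN Y305A libraries lay above the other 12, and all 4 libraries of the SRF-binding forms lay below all 10 others. Its group means ran from 1834 ± 375 FPKM (SD, n = 2) in MRTFB dN Y305A through 858 ± 608 in the Puro vector to 12.7 ± 10.6 in MRTFB dN.

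MT1X, another MT1 isoform, shared the low levels in the SRF-binding forms but not the high levels in the Y305A forms. It had 59.9 and 45.7 FPKM in the Hygro vector, 30.9 and 40.1 in YAP 5SA, and 95.4 and 434 in the Puro vector. MRTFB dN had 2.27 and 6.21 FPKM, and MRTFB dN dPY had 4.93 and 10.97. MRTFB dN Y305A had 27.7 and 152 FPKM, and MRTFB dN Y305A/dPY had 14.8 and 89.0. The 4 libraries of the SRF-binding forms were again the lowest of the 14, and the highest was Puro vector replicate 2. The 2 libraries of each Y305A form lay on either side of both Hygro vector libraries.

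MT1F was low throughout. It had 2.83 and 6.80 FPKM in the Hygro vector, 1.33 and 1.04 in YAP 5SA, and 13.4 in Puro vector replicate 2, while Puro vector replicate 1 was listed at 0. It had 1.13 and 1.23 FPKM in MRTFB dN, 0.827 and 3.06 in MRTFB dN dPY, 9.74 and 13.03 in MRTFB dN Y305A, while MRTFB dN Y305A/dPY had 13.4 and 5.26. The Y305A forms were higher than the forms that bind SRF in all libraries, and Puro vector replicates 1 and 2 marked the low and nearly the high end of the range.

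SLC30A1, the zinc exporter, varied far less than the metallothioneins. It had 42.9 and 23.5 FPKM in the Hygro vector, 27.7 and 21.0 in YAP 5SA, and 28.7 and 16.8 in the Puro vector. It had 13.1 and 14.2 FPKM in MRTFB dN, 14.3 and 15.0 in MRTFB dN dPY, 22.0 and 11.8 in MRTFB dN Y305A, while MRTFB dN Y305A/dPY had 17.9 and 16.1. The lowest library was MRTFB dN Y305A replicate 2, the same library that had the highest MT2A and MT1E, and the groups with and without SRF binding overlapped. Poly(A) RNA pooled over the cells of a culture was measured. Fewer cells with a high level and less RNA in each cell thus cannot be told apart for any of these genes.

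**Figure D2:**
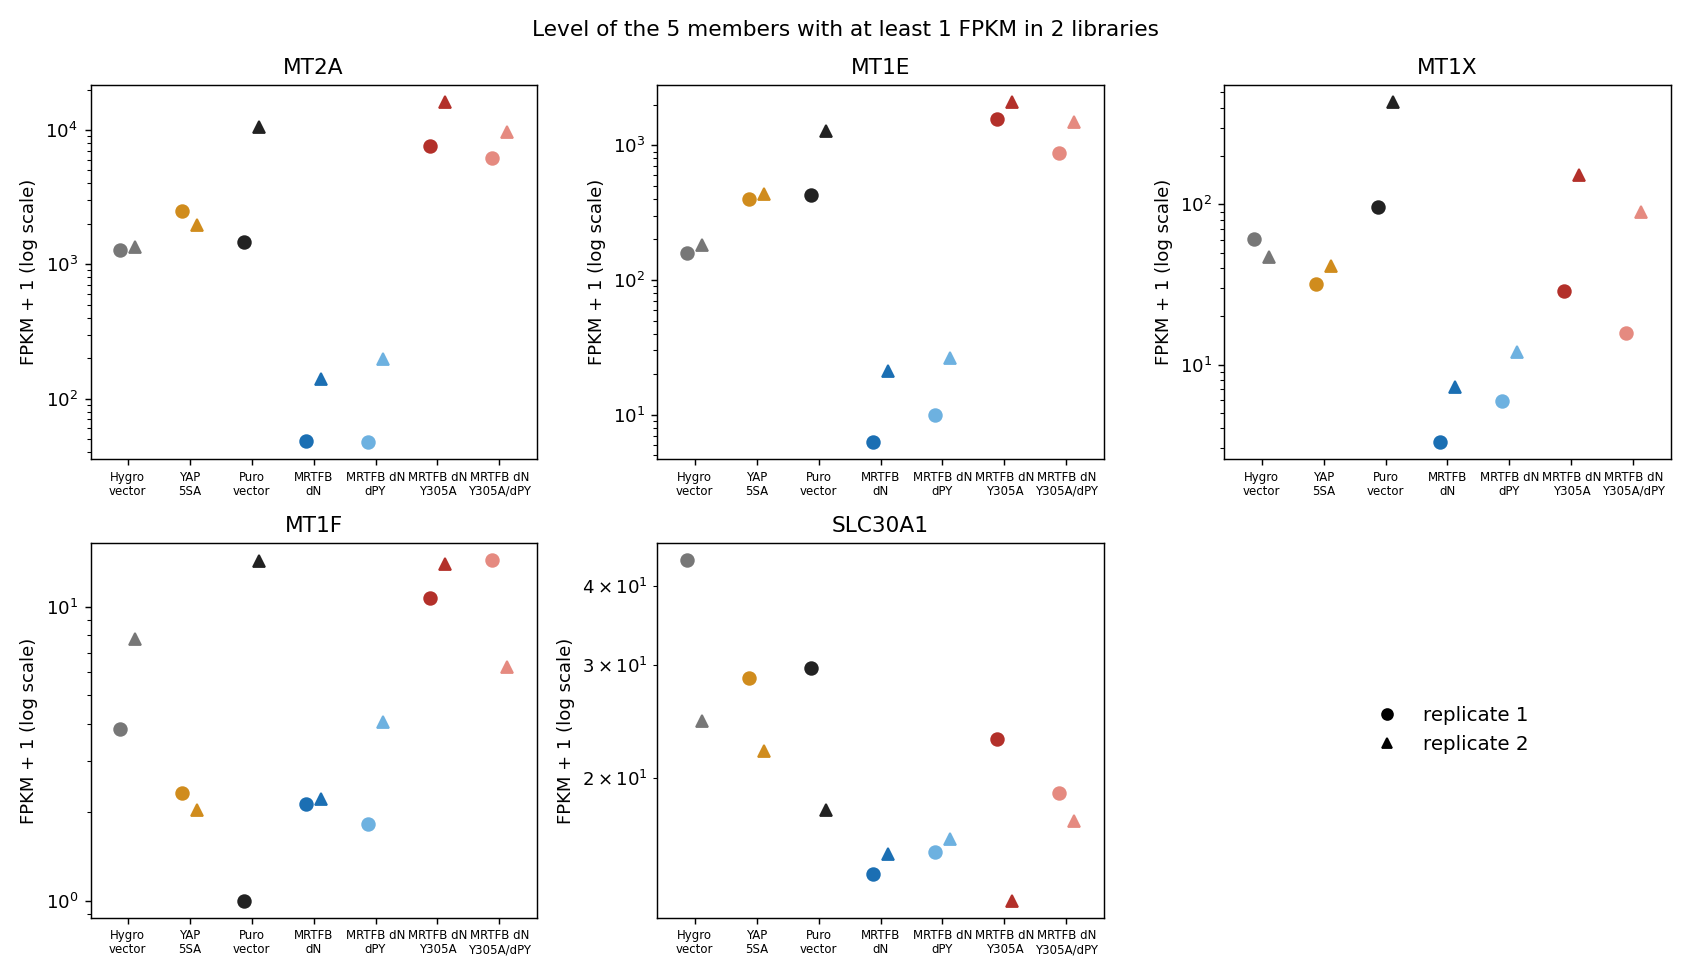
Level of the 5 members that passed the filter in each of the 14 libraries, as FPKM + 1 on a log axis, with 1 panel per gene, 7 groups on the x axis, circles for replicate 1 and triangles for replicate 2. MT2A, MT1E and MT1X are lowest in the 4 libraries of MRTFB dN and MRTFB dN dPY, while SLC30A1 spans only 11.8 to 42.9 FPKM.

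The 2 libraries of a group differed in a common direction for 3 members. MT2A, MT1E and MT1X were each higher in replicate 2 than in replicate 1 in the Puro vector and in all 4 MRTFB groups. Over 11307 loci same-numbered libraries of the MRTFB groups deviated together (r from 0.318 to 0.640), but not with the Puro vector (r from -0.034 to 0.074). How many loci share the direction of these 3 members is not given here, so it cannot be called particular to them. The ratio of replicate 2 to replicate 1 reached 7.22 for MT2A, 3.01 for MT1E and 4.55 for MT1X in the Puro vector. In the MRTFB groups it was 1.58 to 4.25 for MT2A, 1.34 to 3.86 for MT1E and 2.23 to 6.002 for MT1X. MKL2 went the other way in these 4 groups, with 299.5 FPKM in replicate 1 and 165 in replicate 2 of MRTFB dN, 286 and 171 in MRTFB dN dPY, 404 and 294 in MRTFB dN Y305A, while MRTFB dN Y305A/dPY had 610 and 343. The part of the MKL2 level in the metallothionein levels was not tested.

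The proportions of the isoforms within a library set MT1X apart from MT1E. MT2A made up 73.6% to 87.7% of the summed FPKM of 16 metallothionein loci. That sum was 1506 and 1570.3 FPKM in the Hygro vector, 56.1 and 166 in MRTFB dN, while MRTFB dN Y305A had 9229 and 18444. MT1E stood at 11.02% to 20.6% of the MT2A level in 12 of the libraries, at 22.0% in YAP 5SA replicate 2 and at 29.3% in Puro vector replicate 1.

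MT1X, in contrast, ranged from 0.241% to 10.7% of the MT2A level. It was at 4.66% and 3.42% in the Hygro vector and at 6.54% and 4.12% in the Puro vector. It was at 4.78% and 4.50% in MRTFB dN and at 10.7% and 5.59% in MRTFB dN dPY. It was at 0.363% and 0.937% in MRTFB dN Y305A, at 0.241% and 0.916% in MRTFB dN Y305A/dPY, and at 1.24% and 2.03% in YAP 5SA. The 4 libraries of the Y305A forms had the lowest MT1X share of all 14 and did not overlap with any other group, and YAP 5SA came next. These ratios share the MT2A values that chose the set, so they are a description without a test.

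**Figure D3:**
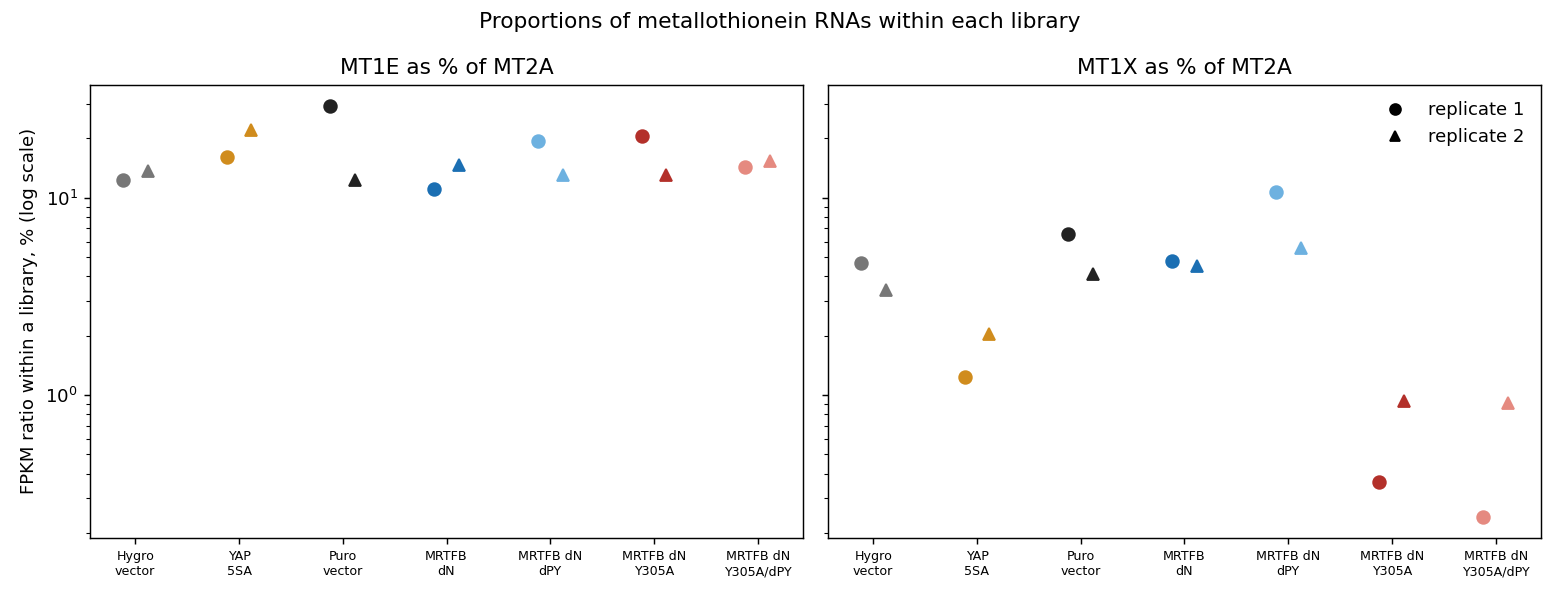
MT1E (left) and MT1X (right) as a percentage of MT2A within each library, on a shared log axis, with 7 groups on the x axis, circles for replicate 1 and triangles for replicate 2. MT1E stays between 11.02% and 29.3% in all groups, whereas MT1X is below 1% in the 4 libraries of the Y305A forms.

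The first comparison asks whether hyperactive YAP changed the set. With YAP 5SA against the Hygro vector, none of the 5 testable members passed limma's test at an adjusted p of 0.05, and none had an unadjusted p under 0.05, while 8.27% of all 13137 loci tested passed. MT1E was 2.54 and 2.39 times higher in YAP 5SA when same-numbered libraries are set side by side, and the groups did not overlap. Its fitted difference was 1.29 ± 0.67 (SE) on the log2(FPKM + 1) scale, which did not pass (adjusted p = 0.28). MT2A differed by 0.76 ± 0.95 (adjusted p = 0.70 in limma). MT1X and MT1F were lower in both YAP 5SA libraries than in either Hygro vector library, by -0.56 ± 0.97 and -1.33 ± 0.95 in the fit (adjusted p = 0.81 and 0.45). How many of all loci separate so is not given here, so these separations are no result about the set. SLC30A1 differed by -0.39 ± 0.37 (adjusted p = 0.60). Set against the Puro vector instead, MT1E and MT2A were lower in YAP 5SA (-0.83 and -0.82).

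The 2 empty vectors were compared because they serve as the controls. In the Puro vector against the Hygro vector, 0 of the 5 testable members passed in limma, 1 had an unadjusted p under 0.05, and 14.2% of all loci tested passed. That member was MT1E, at 2.12 ± 0.67 on the log2 scale (adjusted p = 0.058). MT2A, MT1E and MT1X were all higher in both Puro vector libraries than in both Hygro vector libraries. How many of all loci separate in this way is not given here, so this is no result about the set. MT2A was 1.13 and 7.88 times higher in same-numbered libraries, and its fitted difference of 1.58 ± 0.95 did not pass (adjusted p = 0.27). MT1X differed by 1.94 ± 0.97, MT1F by -0.53 ± 0.95 and SLC30A1 by -0.51 ± 0.37 (adjusted p = 0.19, 0.73 and 0.35). MT1E did pass with the replicate number as a block (adjusted p = 0.018), with median-of-ratios scaling (2.41, adjusted p = 0.041) and when Puro vector replicate 1 was left out (2.92, adjusted p = 0.0496). MT1F passed when Puro vector replicate 2 was left out (-2.45, adjusted p = 0.023).

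Against the Puro vector, the MRTFB forms that bind SRF had less metallothionein RNA. MT2A and MT1E carry no test here, because they were chosen on comparisons of MRTFB libraries. In MRTFB dN, MT2A was 30.7 and 76.2 times lower and MT1E 81.8 and 63.8 times lower than in the same-numbered Puro vector libraries. Their fitted differences were -5.58 ± 0.95 and -6.02 ± 0.67 on the log2 scale, the 24th and 18th largest decreases of the 13137 loci. In MRTFB dN dPY the differences were -5.34 ± 0.95 for MT2A and -5.52 ± 0.67 for MT1E.

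MT1X, which could be tested, fell in both. In MRTFB dN it was 42.0 and 69.8 times lower than in the same-numbered Puro vector libraries, and the fitted difference of -5.40 ± 0.97 passed (adjusted p = 0.0021). In MRTFB dN dPY it was 19.3 and 39.5 times lower, at -4.60 ± 0.97 (adjusted p = 0.0049). MT1X was the 1 of 3 testable members that passed in each comparison, and 36.8% of all loci passed in MRTFB dN and 35.8% in MRTFB dN dPY. That count is close to the share of all loci and is no result about the set. With the Hygro vector as control, MT1X still passed in MRTFB dN but not in MRTFB dN dPY (-2.66, adjusted p = 0.078).

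MT1F and SLC30A1 did not pass in either. MT1F differed by -0.80 ± 0.95 in MRTFB dN and -0.48 ± 0.95 in MRTFB dN dPY (adjusted p = 0.53 and 0.72). Its Puro vector libraries were at 0 and 13.4 FPKM, so the direction depends on 1 library. Without Puro vector replicate 1, MT1F was lower and passed in both (-2.72 and -2.40, adjusted p = 0.011 and 0.018). With replicate 2 of that vector left out instead, it was higher and did not pass (1.12 and 1.45). SLC30A1 was lower in all 4 libraries than in both Puro vector libraries, by -0.65 ± 0.37 in MRTFB dN and -0.56 ± 0.37 in MRTFB dN dPY (adjusted p = 0.18 and 0.26). For this separation too, no share of all loci is given here. Against the Hygro vector it passed in MRTFB dN (-1.16, adjusted p = 0.048).

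The forms that cannot bind SRF were set against the same vector, so these comparisons share their control libraries with the previous ones. MT2A differed by 1.503 ± 0.95 in MRTFB dN Y305A and by 0.98 ± 0.95 in MRTFB dN Y305A/dPY, and MT1E by 1.29 ± 0.67 and 0.63 ± 0.67, as descriptions. For MT2A the Puro vector and both Y305A forms overlapped. For MT1E only MRTFB dN Y305A lay wholly above the Puro vector. Leaving out Puro vector replicate 1 brought MT2A in MRTFB dN Y305A to 0.08 and MT1E to 0.49, and leaving out the other brought them to 2.93 and 2.08. In MRTFB dN Y305A/dPY the first of these turned the differences to -0.44 for MT2A and -0.17 for MT1E.

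No testable member passed in limma against the Puro vector in either Y305A form. In MRTFB dN Y305A 0 of 3 passed and 0 had an unadjusted p under 0.05, with 25.2% of all loci passing. In MRTFB dN Y305A/dPY 0 of 3 passed and 1 had an unadjusted p under 0.05, with 26.4% of all loci passing. MT1X was at -1.63 ± 0.97 and -2.44 ± 0.97 (adjusted p = 0.23 and 0.084), so its fitted level was below the Puro vector where those of MT2A and MT1E were above. With the replicate number as a block, MT1X passed in MRTFB dN Y305A/dPY (adjusted p = 0.021). MT1F was at 1.69 ± 0.95 and 1.33 ± 0.95 (adjusted p = 0.20 and 0.32), and passed without Puro vector replicate 2 (3.62 and 3.25, adjusted p = 0.0033 and 0.0053). SLC30A1 was at -0.42 ± 0.37 and -0.35 ± 0.37 (adjusted p = 0.41 and 0.50).

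**Figure D4:**
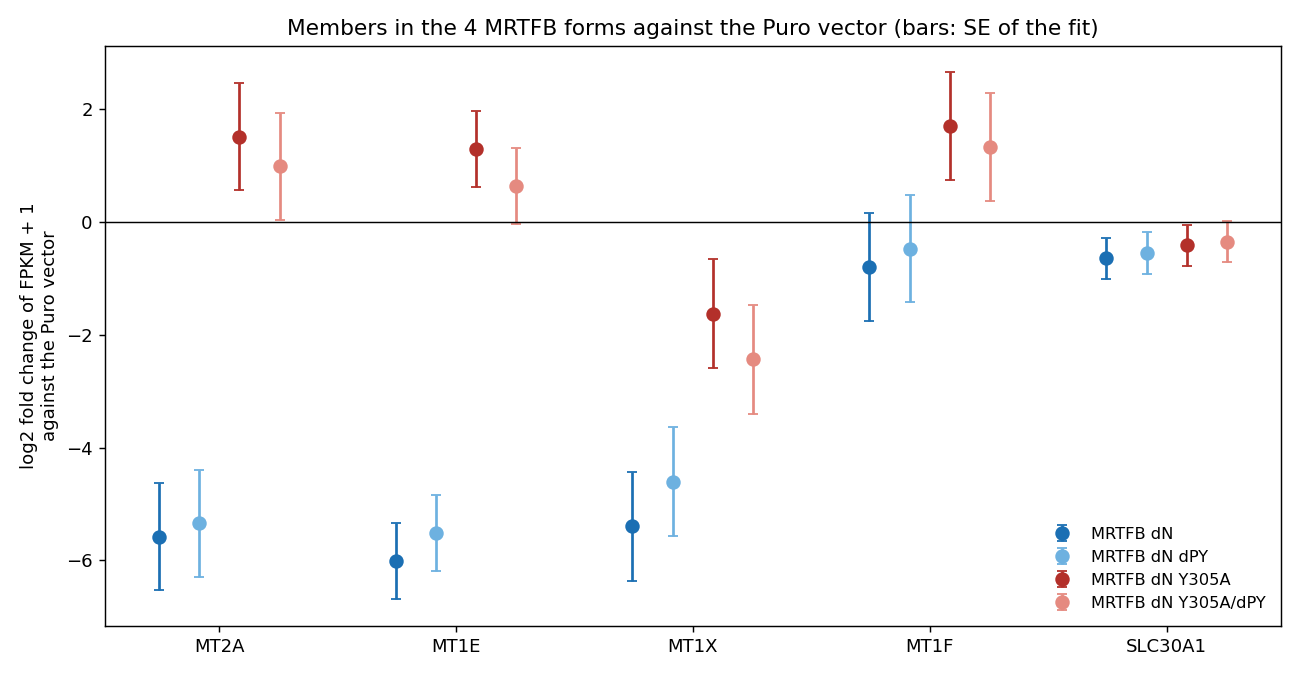
Fitted log2 difference of FPKM + 1 between each of the 4 MRTFB forms and the Puro vector for the 5 members that passed the filter, with bars for the standard error of the fit. The 2 SRF-binding forms (blue) lie below -4 for MT2A, MT1E and MT1X, and the 2 Y305A forms (red) lie above 0 for MT2A, MT1E and MT1F and below 0 for MT1X and SLC30A1.

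The loss of SRF binding is the contrast that chose the set, so its values are given without a test. From MRTFB dN to MRTFB dN Y305A, MT2A was 161 and 117 times higher in same-numbered libraries and MT1E 299.97 and 104 times higher. Among all 13137 loci these were the third and the second largest fitted increases, at 7.08 ± 0.95 and 7.30 ± 0.67 on the log2 scale. MT1X was 12.2 and 24.4 times higher (3.77 ± 0.97, rank 51) and MT1F 8.59 and 10.6 times higher (2.49 ± 0.95, rank 157). SLC30A1 was 1.68 times higher in one pair and at 0.834 times in the other, with a fitted difference of 0.23 ± 0.37.

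With YAP binding also removed the fitted differences were smaller for each metallothionein, by a gap that is uncertain. That gap is the interaction tested below, which did not pass for MT1X (-1.60 ± 1.37) or MT1F (-0.69 ± 1.35). Without a test it was -0.75 ± 1.34 for MT2A and -1.16 ± 0.95 for MT1E. The replicate 1 ratio of MT1F went the other way, at 16.3 against 8.59. From MRTFB dN dPY to MRTFB dN Y305A/dPY, MT2A was 133 and 49.5 times higher and MT1E 98.0 and 58.7 times higher. The fitted differences were 6.33 ± 0.95 and 6.14 ± 0.67, the fifth and the sixth largest increases. MT1X was 3.01 and 8.11 times higher (2.16 ± 0.97) and MT1F 16.3 and 1.72 times higher (1.803 ± 0.95). SLC30A1 differed by 0.20 ± 0.37.

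No testable member passed when the YAP-binding motif alone was removed. In MRTFB dN dPY against MRTFB dN, 0 of 3 passed in limma and 0 had an unadjusted p under 0.05, while 0.236% of all loci passed. MT1X differed by 0.79 ± 0.97, MT1F by 0.32 ± 0.95 and SLC30A1 by 0.10 ± 0.37, each with an adjusted p of 1. In same-numbered libraries MT1X was 2.17 and 1.77 times as high without the motif, and with the replicate number as a block in the MRTFB libraries alone it did not pass either (adjusted p = 0.59). MT2A and MT1E, without a test, differed by 0.23 ± 0.95 and 0.50 ± 0.67, and the 2 groups overlapped for both. These signs turned with 1 library left out, where MT2A ran from -0.80 to 1.26, MT1E from -0.38 to 1.38 and MT1F from -0.25 to 0.90. Same-numbered libraries of the 2 groups deviated together (r = 0.607), so leaving 1 out also breaks a pair. Within pairs MT2A was at 0.974 and 1.42, MT1E at 1.72 and 1.26 and MT1F at 0.729 and 2.50 times its level with the motif.

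The same deletion in the Y305A form gave fitted differences below 0 for the 4 metallothioneins, and all but that of MT1E turned when 1 library was left out. In MRTFB dN Y305A/dPY, compared with MRTFB dN Y305A, 0 of 3 passed in limma and 0 had an unadjusted p under 0.05, and 0.0152% of all loci passed. MT1X differed by -0.81 ± 0.97, MT1F by -0.37 ± 0.95 and SLC30A1 by 0.07 ± 0.37, each with an adjusted p of 1. MT2A and MT1E differed by -0.52 ± 0.95 and -0.66 ± 0.67 as a description, and for MT1E the 2 groups did not overlap. In same-numbered libraries MT1X was at 0.536 and 0.587 times its level with the motif, and did not pass with the block in the MRTFB libraries alone (adjusted p = 0.47). MT2A was at 0.809 and 0.601 times, MT1E at 0.561 and 0.712 times and MT1F at 1.38 and 0.404 times. Same-numbered libraries of these 2 groups deviated together as well (r = 0.640), so leaving 1 out also breaks a pair. With 1 library left out MT2A ran from -1.06 to 0.02, MT1E from -1.04 to -0.28, MT1X from -2.06 to 0.45 and MT1F from -0.97 to 0.23. The difference between the 2 effects of the deletion was tested as an interaction. It passed for 0 of 3 members in limma, with 0 at an unadjusted p under 0.05, and for 0.0228% of all loci. It was -1.60 ± 1.37 for MT1X, -0.69 ± 1.35 for MT1F and -0.03 ± 0.52 for SLC30A1, each with an adjusted p of 1.

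MT2A and MT1E ran nearly in parallel over the 14 libraries, with a Pearson r of 0.991 between their log2(FPKM + 1) values. The r with MT2A was 0.819 for MT1X, 0.677 for MT1F and 0.212 for SLC30A1. The libraries share group and depth, and MT2A and MT1E were both chosen for their increase when SRF binding is lost. A high r between them, or with loci that share that increase, is thus in part fixed by the choice. All r values are a description. Of 8317 named loci with a mean of at least 3 FPKM, those most like MT2A outside the set were RAB17 (r = 0.970), DGKA (0.953), MTRR (0.945), TCEA2 (0.940) and ARAP3 (0.938). For MT1E they were RAB17 (0.964), MTRR (0.939), SPRED2 (0.938), DGKA (0.936) and the locus BBC3,MIR3191 (0.936). RAB17, a small GTPase of epithelial membrane traffic, had 3.46 and 4.24 FPKM in MRTFB dN, while MRTFB dN Y305A had 15.6 and 16.95, a much narrower range than MT2A. TCEA2, a transcription elongation factor, had the same uneven Puro vector libraries as MT2A, at 6.70 and 19.5 FPKM.

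SLC30A1 ran with a different group of loci. Those most like it were EPB41L4A (r = 0.889), RARRES1 (0.873), CES2 (0.872), PIAS1 (0.869) and VSTM2L (0.869). All 5 were highest in Hygro vector replicate 1, the library in which SLC30A1 was highest, at 14.2 FPKM for EPB41L4A and 236 for RARRES1.

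Other genes of the zinc system and of related pathways were counted as lists, beside the share of all loci that passed. Against the Puro vector 21.8% of all loci rose and 15.0% fell in MRTFB dN, and MRTFB dN dPY had shares of 21.0% and 14.8%. The shares were 14.2% (higher) and 10.9995% (lower) for MRTFB dN Y305A, while MRTFB dN Y305A/dPY had 15.0% and 11.4%. The counts for the zinc exporters, zinc importers, copper, iron, glucocorticoid and neighbour lists below were each within 3 genes of what these shares give, and are no result about those lists. MTF1, the zinc sensor, lay between 2.89 and 5.74 FPKM in all 14 libraries and passed in none of the 8 pairwise comparisons tested, with differences of 0.04 ± 0.27 in MRTFB dN and 0.23 ± 0.27 in MRTFB dN Y305A against the Puro vector (adjusted p = 0.93 and 0.55 in limma). MTF2, which shares the name but not the zinc-sensing role, passed in none either. Of 5 other zinc exporters tested, SLC30A5, which loads zinc into the secretory pathway, fell in MRTFB dN Y305A (-0.75 ± 0.23, adjusted p = 0.038), and none passed in the other 3 forms. No exporter of this list passed in any form once Puro vector replicate 1 was left out. With the Hygro vector as control 1 rose in each SRF-binding form, and with median-of-ratios scaling 1 fell in each of the 4 forms. The median over these 5 was between -0.26 and 0.06 against the Puro vector and that over 11 zinc importers between -0.28 and 0.36, beside 0.07 to 0.10 over all loci.

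Among the zinc importers, SLC39A10, which brings zinc in across the plasma membrane, was lower in all 4 MRTFB forms. It had 14.6 and 24.1 FPKM in the Puro vector, 3.29 and 7.91 in MRTFB dN, while MRTFB dN Y305A had 4.22 and 8.25. The differences against the Puro vector ran from -1.51 ± 0.44 to -2.05 ± 0.44 (adjusted p between 0.010 and 0.032). SLC39A13, a zinc transporter of the Golgi region, rose in the 2 Y305A forms (1.43 and 1.19, adjusted p = 0.017 and 0.030). SLC39A7, which releases zinc from the endoplasmic reticulum, rose in MRTFB dN alone among the 4 forms (1.22, adjusted p = 0.043), a difference between forms that was not tested. With the Hygro vector as control, 1 importer rose and 1 fell in MRTFB dN, and none passed in the other 3 forms. No importer rose in any form once Puro vector replicate 1 was left out, and 2, 2, 1 and 2 fell.

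Of 11 copper-handling loci tested (median 0.23 to 0.58 over the 4 forms), 4 rose and 1 fell in MRTFB dN and in MRTFB dN dPY, 4 rose in MRTFB dN Y305A and 1 in MRTFB dN Y305A/dPY. The list includes MTF1, and its median in both Y305A forms is the value of MTF1. Higher were 36.4% of the list in the first 3 forms and 9.09% in the last, beside 21.8%, 21.0%, 14.2% and 15.0% of all loci. Lower in the first 2 forms were 9.09%, beside 15.0% and 14.8%. SLC31A2, a copper transporter of internal membranes, rose in all 4, by 2.79 ± 0.29 in MRTFB dN and 0.95 ± 0.29 in MRTFB dN Y305A. The copper-loaded antioxidant enzyme SOD1 rose by 1.43 ± 0.47 in each of these 2 forms (adjusted p = 0.034 and 0.046). Without Puro vector replicate 1 only 1 copper gene rose in MRTFB dN and in MRTFB dN dPY, and 0 in the Y305A forms. Of 7 iron-handling loci (median 0.20 to 0.77) 2 rose in MRTFB dN (28.6%), 0 in MRTFB dN dPY and 1 in each Y305A form (14.3%), beside the same shares of all loci. The gene that rose in the Y305A forms was HMOX1, the enzyme that breaks down heme, at 2.75 ± 0.47 and 1.99 ± 0.47 (adjusted p = 0.0055 and 0.014). HMOX1 is also counted in the NRF2 list below. No iron gene passed in MRTFB dN Y305A/dPY once Puro vector replicate 1 was left out, and against the Hygro vector none passed in either Y305A form.

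Part of the oxidative stress list was higher than in the Puro vector in each form, and fewer of its genes than that were higher than in the Hygro vector. Of 14 NRF2 and glutathione genes, 7 rose and 1 fell in MRTFB dN, 6 rose and 1 fell in MRTFB dN dPY, 7 rose and 1 fell in MRTFB dN Y305A, and 9 rose and 1 fell in MRTFB dN Y305A/dPY, which is 42.9% to 64.3% of the list higher beside 14.2% to 21.8% of all loci. NQO1, a quinone reductase, had 34.3 and 46.5 FPKM in the Puro vector, 136 and 101 in MRTFB dN, while MRTFB dN Y305A had 241 and 175. TXNRD1, thioredoxin reductase, had 10.5 and 12.1 FPKM in the Puro vector, 98.8 and 83.3 in MRTFB dN, while MRTFB dN Y305A had 34.9 and 23.4. SLC7A11, the cystine importer, was the gene that fell in all 4. The median of the 14 was 0.73 to 1.21 against the Puro vector, beside 0.07 to 0.10 over all loci. In the Puro vector itself 6 of the 14 were lower and 1 higher than in the Hygro vector (median -0.80), beside 8.55% and 5.69% of all loci. With the Hygro vector as control 3, 3, 1 and 1 of the 14 rose, in the same order of forms, with medians from -0.002 to 0.26. The share of all loci with that control is not given here, so those counts are no result about the list. The numbers that rose were 5, 4, 6 and 5 without Puro vector replicate 1.

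Heat shock genes, which share some inducers with metallothioneins, were higher in all 4 MRTFB forms than in the Puro vector. Of 12 tested, 9 rose in MRTFB dN, 8 in MRTFB dN dPY, 8 in MRTFB dN Y305A and 9 in MRTFB dN Y305A/dPY, and none fell, with a median of 1.69 to 1.83. That is 66.7% to 75.0% of the list beside 14.2% to 21.8% of all loci. HSPA1A, an inducible HSP70 chaperone, had 3.37 and 2.64 FPKM in the Puro vector, 57.2 and 56.6 in MRTFB dN, while MRTFB dN Y305A had 45.5 and 37.9. In the control itself 8 of the 12 were lower than in the Hygro vector and none was higher, beside 8.55% and 5.69% of all loci. Against the Hygro vector 1, 2, 0 and 1 of the 12 rose. The share of all loci with that control is not given here, so those counts are no result about the list. HSPA1A and HSPA1B are near-identical copies whose reads can be split between them.

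Of 11 glucocorticoid-responsive genes tested, 3 rose and 3 fell in MRTFB dN, 2 and 3 in MRTFB dN dPY, 1 and 4 in MRTFB dN Y305A, while MRTFB dN Y305A/dPY had 2 and 4 such genes, with medians from -0.88 to 0.27. ZBTB16, a zinc finger repressor induced by glucocorticoids, fell in all 4, with 34.8 and 11.5 FPKM in the Puro vector, 2.33 and 3.37 in MRTFB dN, while MRTFB dN Y305A had 0.701 and 1.12. SGK1, a kinase induced by glucocorticoids and serum, rose in the SRF-binding forms and fell in the Y305A forms. It had 10.3 and 9.28 FPKM in the Puro vector, 193 and 232 in MRTFB dN, while MRTFB dN Y305A had 6.59 and 3.35, an order opposite to that of MT2A. Without Puro vector replicate 1 the counts were 1 and 2 in both SRF-binding forms and 0 and 2 in both Y305A forms.

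Genes next to the metallothionein cluster on chromosome 16 were followed as its surroundings. Of 8 neighbours tested (median 0.16 to 0.76), 3 rose in MRTFB dN and 4 in MRTFB dN dPY and none fell, while 2 rose in MRTFB dN Y305A, and 3 rose and 1 fell in MRTFB dN Y305A/dPY. In that order 37.5%, 50%, 25% and 37.5% of the list rose, beside 21.8%, 21.0%, 14.2% and 15.0% of all loci. The 1 that fell is 12.5% of the list, beside 11.4%. NUP93, a nuclear pore component, had 5.91 and 10.98 FPKM in the Puro vector, 15.1 and 13.1 in MRTFB dN, while MRTFB dN Y305A had 21.7 and 22.1. The locus GNAO1,MIR3935, which holds a G protein subunit gene, rose in MRTFB dN, from 1.83 and 1.51 FPKM to 12.8 and 11.02, where MT2A was at its lowest, and had 1.71 and 1.67 in MRTFB dN Y305A. With Puro vector replicate 1 left out, the neighbours that rose were 1 in MRTFB dN, 2 in MRTFB dN dPY and 0 in both Y305A forms, where 1 fell. In the 2 comparisons of the YAP-binding deletion none of the genes in these 9 lists passed.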

How the data were processed

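RNA of 14 MCF-10A libraries in 7 groups of 2 was measured as stranded poly(A) libraries with paired reads of 75 bases, per the labels. The authors deposited 1 table of FPKM for 34071 loci, of which 27543 are named. The submitters' processing notes name Bowtie, TopHat, Cufflinks, Cuffnorm and hg19. Versions, the annotation and the scaling between libraries are not given in the sources used here.

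The 13137 named loci that reach 1 FPKM in 2 or more libraries entered the test, which ran limma 3.58.1 in R 4.3.3 on log2(FPKM + 1), all 14 libraries in 1 fit on group with an intensity trend and 7 residual degrees of freedom, two-sided, with Benjamini-Hochberg adjustment and a threshold of 0.05. A fold on this scale understates the change of low genes. Tables and figures were made in Python 3.11.15 (pandas 2.3.3, numpy 2.4.6, matplotlib 3.10.9). The fit was tested on simulated data. MRTFB dN dPY replicate 1 is empty over 5257 loci, which were treated as missing, a choice made after seeing the data. No member lies there, and no 2 libraries held the same values.

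The members and gene lists were chosen with earlier results of these data known. The contrasts that lose SRF binding are described without a test, as are MT1E and MT2A in every comparison of MRTFB libraries. All 9 members are named. Libraries or groups said not to overlap describe single genes, since the share of all loci that separate so is not given here. From each list up to 4 of the genes with the largest change among those past the threshold are named, together with MTF1 and MTF2 and the 5 loci most like MT2A, MT1E and SLC30A1. MT1DP was named after its value was seen.

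Same-numbered libraries deviated together in 6 of 6 pairs of MRTFB groups (r from 0.318 to 0.640) but in only 7 of all 21 pairs of groups, so the number was not used as a block in the fit. The results were recomputed with the replicate block, with the other vector, on the compared groups alone, without each library in turn, without the filter or the trend, with median-of-ratios scaling and with a pseudocount of 0.1.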

Additional observations from a re-analysis of the deposited data

How the results depend on the processing

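Of 31 tested values of members 15 kept their direction under all alternatives run, and of 22 described values 16 did. The fall of MT1X in MRTFB dN passed under every one. The count of members called moved as follows. YAP 5SA against the Hygro vector went from 0 to 1 in a fit of these 2 groups alone (MT1F). Puro against Hygro vector went from 0 to 1 with median-of-ratios scaling and with the replicate block (MT1E both times), and to between 0 and 1 when a library was left out. Against the Puro vector, MRTFB dN went from 1 to 2 and MRTFB dN dPY from 1 to 0 with the Hygro vector as control, and both to between 1 and 2 when a library was left out. MRTFB dN Y305A went from 0 to between 0 and 1 when a library was left out, and MRTFB dN Y305A/dPY to 1 with the replicate block (MT1X) and to between 0 and 1 when a library was left out (MT1F without Puro vector replicate 2, MT1X without MRTFB dN Y305A/dPY replicate 2). The replicate block changed no other call of a member. The cause of these moves was not tested, except that MT1F is listed at 0 in Puro vector replicate 1.

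Directions turned for values that did not pass. With the other vector as control, YAP 5SA gave -0.83 for MT1E, -0.82 for MT2A and 0.13 for SLC30A1, and MRTFB dN Y305A gave 0.31 for MT1X. With a pseudocount of 0.1, MT1F was at 0.14 in MRTFB dN and 0.56 in MRTFB dN dPY. When 1 library was left out, which assumes that the lone library varies like the others, MT1F ranged from -2.45 to 1.40 in the Puro against the Hygro vector, and against the Puro vector from -2.72 to 1.12 in MRTFB dN, -2.40 to 1.45 in MRTFB dN dPY, -0.23 to 3.62 in MRTFB dN Y305A and -0.60 to 3.25 in MRTFB dN Y305A/dPY. SLC30A1 ranged from -0.81 to 0.035 in YAP 5SA, and against the Puro vector from -0.84 to 0.0021 in MRTFB dN Y305A and -0.72 to 0.015 in MRTFB dN Y305A/dPY. For the YAP-binding deletion, MT1F ranged from -0.25 to 0.90 in the SRF-binding form, and in the Y305A form MT1F ranged from -0.97 to 0.23, MT1X from -2.06 to 0.45 and SLC30A1 from -0.36 to 0.49. The interaction for SLC30A1 ranged from -0.45 to 0.39.

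Scaling by the median of ratios moved the median of all loci from 0.09 to -0.16 in MRTFB dN and from 0.10 to -0.18 in MRTFB dN Y305A, and the share of higher calls from 59.3% to 44.7% and from 56.3% to 33.4%. It turned no direction of a member. Against the Hygro vector MT1E, without a test, was at -3.89 in MRTFB dN, -3.39 in MRTFB dN dPY, 3.41 in MRTFB dN Y305A and 2.75 in MRTFB dN Y305A/dPY. Summing loci of a gene gave the same values, since each member has 1 locus. The small groups, the unknown depth and the uneven Puro vector libraries limit every comparison with that vector.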
